A study of Mus musculus with 8 samples.

Results

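The genes of the MHC class II antigen presentation pathway were followed in undifferentiated pleomorphic sarcomas (UPS) of the mouse: H2-Aa, H2-Ab1, H2-Eb1, H2-DMa, H2-DMb1, Cd74, Ciita and Ctss. They were 8 of the 26667 genes in the count table. The genes were chosen by their known role in class II presentation with their levels in these same tumours already seen, so their values are given as a description. No p-value of a single member is given. From the fit across all genes, fold changes with standard errors and counts of calls are shown for them, as description. RNA-seq was carried out on 8 hind limb tumours, 1 library per tumour. KP tumours (KP 5 to KP 8) carried Trp53 fl/fl and are labelled wild type. KPH2 tumours (KPH2 1 to KPH2 4) carried the alleles of KP tumours together with Epas1 fl/fl, the floxed gene of HIF-2α, and are labelled Epas1 -/-. All mice were on a mixed 129/C57BL/6 background, were at least 8 weeks old when tumours were started, and received an adenovirus expressing Cre (Ad-Cre) into the hind limb muscle. Recombination was therefore limited to cells that the virus reached, and both groups carried the Trp53 deletion. RNA was extracted from fixed, paraffin-embedded sections, so each library held tumour cells together with the blood vessels, muscle and leukocytes of the section. The labels do not say whether each tumour came from a separate mouse, so spreads are between tumours.

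MHC class II molecules are pairs of an alpha and a beta chain that carry peptides from internalized proteins to the cell surface, where CD4+ T cells read them. They are best known from dendritic cells, B cells and activated macrophages. New chains are held by the invariant chain (Cd74), which the lysosomal protease cathepsin S (Ctss) trims to a short remnant, and H2-DM then exchanges this remnant for a peptide. Ciita, the class II transactivator, does not bind DNA itself but is recruited by the RFX and NF-Y complexes, which sit on the X and Y boxes of class II promoters.

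These boxes were looked for in the RefSeq promoter windows of the members, because Ciita is known to act through them and the levels of the members other than Ctss varied together in these tumours. A window spans 250 bases before to 50 bases after a gene start in GRCm38.p6, and windows were found for H2-Aa, H2-Eb1, H2-DMb1, Ctss and, at 2 alternative starts, H2-DMa. TGATTGG was searched as the Y box and GNAACT as the core of the X box, on both strands of the 250 bases before the start, and a pair was counted where the X core preceded the Y box by 10 to 30 bases. These letters were settled on after the windows had been read. The pair stood in H2-Aa (chr17:34287837-34287934, minus strand), H2-Eb1 (chr17:34305746-34305842, plus strand) and H2-DMb1 (chr17:34153067-34153164, plus strand), shown here 5′ to 3′ with the X core and the Y box in capitals.
H2-Aa: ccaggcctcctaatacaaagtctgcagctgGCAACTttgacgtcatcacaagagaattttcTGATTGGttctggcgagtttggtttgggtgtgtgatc
H2-Eb1: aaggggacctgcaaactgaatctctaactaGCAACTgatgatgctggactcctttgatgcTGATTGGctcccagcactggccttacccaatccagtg
H2-DMb1: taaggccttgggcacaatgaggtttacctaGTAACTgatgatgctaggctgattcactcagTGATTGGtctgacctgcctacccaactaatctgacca

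Between the Y box and the gene start lay 43 bases in H2-Aa, 54 in H2-Eb1 and 56 in H2-DMb1. The boxes themselves were 25 bases apart in H2-Aa and H2-DMb1 and 24 in H2-Eb1. Of all 32851 promoter windows, 7.23% held TGATTGG, 37.3% held GNAACT and 0.158% (52 windows) held the pair. Neither set of letters was in the windows of Ctss or H2-DMa. The windows of H2-DMa (chr17:34122582-34122881 and chr17:34125268-34125567) do not cover its listed start at 34119693, so the bases before that start were not searched. The only other gene of the pathway lists with the pair was H2-Eb2, a further class II beta chain. These matches are descriptions of the letters, and binding was not measured.

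Total counts per tumour ran from 6463221 to 13155510, and the library of KPH2 1, with 13080056 counts, was among the largest. Levels are given as CPM, counts scaled to a library of 1000000 after TMM normalization, which corrects for differences in library composition. In the study 1 knockout tumour was set aside as an outlier. KPH2 1 is missing from the smaller deposited table of normalized values, so KPH2 1 is shown apart throughout and KPH2 2 to KPH2 4 form the KPH2 group unless stated. Epas1, the deleted gene, stood at 59.1, 83.0, 86.7 and 83.9 CPM in KP 5 to KP 8, at 53.3, 37.7 and 42.4 CPM in KPH2 2 to KPH2 4 and at 32.6 CPM in KPH2 1. Its groups did not overlap, with a log2 fold change of -0.81 ± 0.19 (SE), which missed the threshold over all genes (adjusted p = 0.0742 by edgeR's quasi-likelihood test). Of the 8 mesenchymal markers, Col3a1 lay between 4330 and 7682 CPM and Vim between 1344 and 2924 CPM in the 8 tumours. Fold changes (log2) lay below 0 for 7 of the 8, and 1 of the 8 was called, beside 1.96% of all tested genes over the 7 tumours. This was Pdgfra, at 719 to 1491 CPM in KP, 223 to 273 CPM in KPH2 2 to KPH2 4 and 638 CPM in KPH2 1 (-2.02 ± 0.27 SE, adjusted p = 0.0183 by edgeR, and 0.160 with KPH2 1 included). With 1 of the 7 tumours left out, its adjusted p by edgeR was 0.0719 without KPH2 2, which lost the call, and 0.0151 to 0.0484 without any other. Thy1 ranged from 48.3 to 334 CPM.

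The classical class II chains were all well counted. The highest tumour was KP 8 or KPH2 3, the lowest was KPH2 1 and, with KPH2 1 apart, KP 7. H2-Aa (Entrez Gene 14960, chromosome 17, 34282744 to 34287823), the alpha chain of the A molecule, stood at 199, 362, 188 and 492 CPM in KP 5, 6, 7 and 8. In KPH2 2, 3 and 4 it stood at 237, 474 and 318 CPM, and in KPH2 1 at 71.7 CPM. Apart from KPH2 1, each KPH2 tumour therefore lay inside the range of the KP tumours, and the means were 310.1 ± 145 CPM in KP (SD, n = 4) and 343 ± 121 CPM in KPH2 (SD, n = 3).

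H2-Ab1 (Entrez Gene 14961, chromosome 17, 34263227 to 34269418), the beta chain that pairs with H2-Aa, stood at 129, 196, 115 and 279 CPM in KP 5 to KP 8. It reached 142, 287 and 199 CPM in KPH2 2 to KPH2 4 and 43.0 CPM in KPH2 1. H2-Eb1 (Entrez Gene 14969, chromosome 17, 34305867 to 34316674), the beta chain of the E molecule, stood at 122, 225, 113 and 285 CPM in KP 5 to KP 8, at 145, 320.4 and 217 CPM in KPH2 2 to KPH2 4 and at 46.8 CPM in KPH2 1. For both beta chains KPH2 3 was the highest tumour and KP 8 the next, KP 5 and KP 7 were the lowest of the 7, and the groups overlapped. The H2-Eb1 locus overlaps the annotated gene Gm20513, and whether the counting used strand is not stated.

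The alpha chain that would pair with H2-Eb1 is H2-Ea, which is disrupted in the b haplotype of C57BL/6 mice and stands in the count table as the pseudogene H2-Ea-ps. It had 0 counts in all 8 tumours, which allows at most 0.222 to 0.444 CPM (3 counts) depending on the library. H2-Eb1 was thus counted in tumours in which no transcript of its partner chain was detected at this depth.

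**Figure D1:**
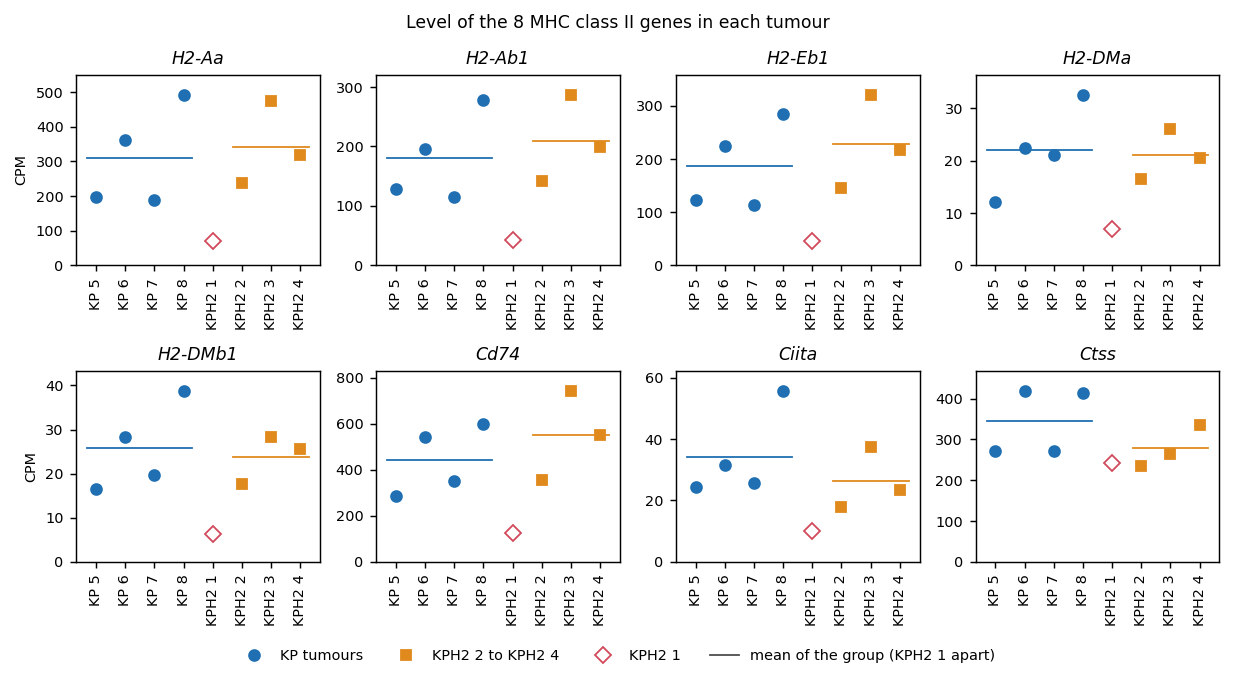
Level of each class II gene (vertical axis, CPM, starting at 0) in each of the 8 tumours (horizontal axis). Circles are KP tumours, squares KPH2 2 to KPH2 4 and the open diamond KPH2 1, with lines at the mean of KP and of KPH2 2 to KPH2 4; the groups overlap for every gene, and KPH2 1 is the lowest tumour for every gene except Ctss.

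Cd74 (Entrez Gene 16149, chromosome 18, 60803849 to 60812652), is the invariant chain. It stood at 284, 541, 352 and 600.2 CPM in KP 5 to KP 8, at 357, 741 and 549.6 CPM in KPH2 2 to KPH2 4 and at 127 CPM in KPH2 1. KPH2 3 was again the highest tumour, and the other KPH2 tumours apart from KPH2 1 lay inside the KP range. The means were 444 ± 150.3 CPM in KP (SD, n = 4) and 549 ± 192 CPM in KPH2 (SD, n = 3).

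The H2-DM genes encode the alpha and beta chain of the molecule that loads peptides. H2-DMa (Entrez Gene 14998, chromosome 17, 34119693 to 34139101) stood at 12.1, 22.5, 21.2 and 32.5 CPM in KP 5 to KP 8, at 16.4, 26.1 and 20.6 CPM in KPH2 2 to KPH2 4 and at 6.86 CPM in KPH2 1. H2-DMb1 (Entrez Gene 14999, chromosome 17, 34153191 to 34160229) stood at 16.6, 28.2, 19.7 and 38.6 CPM in KP 5 to KP 8, at 17.6, 28.4 and 25.6 CPM in KPH2 2 to KPH2 4 and at 6.23 CPM in KPH2 1. Both were highest in KP 8 and lowest in KPH2 1, and all of KPH2 2 to KPH2 4 lay inside the KP range. H2-DMb1 has a near-identical copy, H2-DMb2, at 0.593 to 2.70 CPM, between which unique alignments may be divided, and H2-DMa overlaps annotated genes that include Brd2, so these values are less certain.

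Ciita (Entrez Gene 12265, chromosome 16, 10480014 to 10531064), the transactivator, stood at 24.3, 31.6, 25.8 and 55.5 CPM in KP 5 to KP 8. In KPH2 2 to KPH2 4 it stood at 17.9, 37.6 and 23.3 CPM and in KPH2 1 at 10.1 CPM. KP 8 was the highest tumour, while KPH2 2 and KPH2 4 lay below the lowest KP tumour and KPH2 3 above all KP tumours but KP 8. The means were 34.3 ± 14.5 CPM in KP (SD, n = 4) and 26.2 ± 10.2 CPM in KPH2 (SD, n = 3). Ciita overlaps the gene Dexi in the annotation.

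Ctss (Entrez Gene 13040, chromosome 3, 95526786 to 95556405), the protease that trims the invariant chain, ordered the tumours in another way than the other members. It stood at 271, 418, 273 and 415 CPM in KP 5 to KP 8, at 234, 264 and 336 CPM in KPH2 2 to KPH2 4 and at 242 CPM in KPH2 1. Here KP 6 and KP 8 were the highest tumours and KPH2 2, not KPH2 1, was the lowest. The highest of the 7 tumours was 1.79 times the lowest, against 2.33 to 3.1 times for the other members and a median of 2.0 times over all tested genes. A ratio of at least 2.33 was reached by 38.6% of tested genes.

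Compared per length, as CPM per kilobase of exon, the invariant chain led and the transactivator came last. Mean levels in KP tumours (SD, n = 4) were 314 ± 106 for Cd74, 275 ± 129 for H2-Aa, 253 ± 61.5 for Ctss and 148 ± 61.8 for H2-Ab1. They were 112 ± 49.8 for H2-Eb1, 18.4 ± 7.04 for H2-DMb1, 13.3 ± 5.05 for H2-DMa and 5.13 ± 2.17 for Ciita. The top of this order was not fixed: Cd74 exceeded H2-Aa in 7 of the 8 tumours and H2-Aa exceeded Ctss in 5, and their SDs overlapped. Ctss exceeded H2-Ab1 in 7 of 8 tumours. From H2-Ab1 downward each gene exceeded the next in all 8 tumours, with H2-Eb1 4.83 to 9.5 times H2-DMb1 and H2-DMa 2.0 to 3.71 times Ciita.

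The comparison of KPH2 with KP tumours asks whether deletion of Epas1 went with a different transcript level. For the members it showed small differences in both directions, smaller than the standard error for 6 of the 8 genes, all but Ciita and Ctss. In the fit across all genes over the 7 tumours, the log2 fold change (KPH2 against KP) was 0.30 ± 0.32 (SE) for Cd74, 0.29 ± 0.39 for H2-Eb1, 0.22 ± 0.35 for H2-Ab1 and 0.14 ± 0.39 for H2-Aa. It was -0.07 ± 0.32 for H2-DMa, -0.12 ± 0.31 for H2-DMb1, -0.31 ± 0.22 for Ctss and -0.39 ± 0.36 for Ciita. The presenting chains and Cd74 thus had the positive values, and the loading genes, the protease and the transactivator the negative ones. The median over the 8 members was 0.04, beside -0.02 over all tested genes.

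All 8 members passed the filter on low counts. None of them was called at an adjusted p of 0.05 by edgeR (0 of 8, beside 1.96% of all 14867 tested genes) or by DESeq2 (beside 7.25% of the genes it tested), and none had an unadjusted p under 0.05 by edgeR (beside 17.8%). None had groups that did not overlap, beside 16.9% of all tested genes. With KPH2 1 included, all 8 log2 fold changes were below 0, from -0.003 ± 0.48 for Cd74 to -0.63 ± 0.41 for Ciita, with a median of -0.26 beside 0.01 over all genes. Again 0 of 8 were called by edgeR (0.00675% of all genes) or DESeq2 (3.94%), 0 had an unadjusted p under 0.05 by edgeR (14.7%), and 0 had groups that did not overlap (8.16% of all genes). The signs of 5 members also turned with other tumours left out of the 7. Without KPH2 3 the log2 fold changes were -0.16 for H2-Aa, -0.08 for H2-Ab1, -0.04 for H2-Eb1 and 0.03 for Cd74, and that of H2-Aa was -0.01 without KP 5 and -0.04 without KP 7. Those of H2-DMa and H2-DMb1 were 0.18 and 0.15 without KP 8, and 0.08 and 0.07 without KPH2 2. For Ciita the value was -0.06 without KP 8, -0.18 without KPH2 2 and -0.74 without KPH2 3, and for Ctss it lay between -0.47 and -0.20 whichever tumour was left out.

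**Figure D2:**
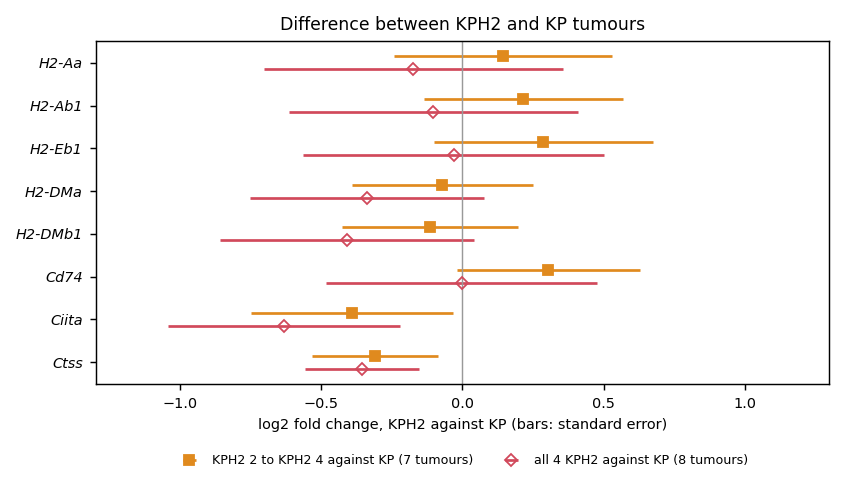
Log2 fold change of each class II gene between KPH2 and KP tumours (horizontal axis, bars are standard errors of edgeR's fit). Squares leave out KPH2 1 and open diamonds include it; the squares run from -0.39 for Ciita to 0.30 for Cd74, and all diamonds lie at or below 0.

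KPH2 1 stood below the other tumours in 7 of the 8 members, all but Ctss. All tested genes had their lowest level in KPH2 1 in 14.8% of cases. The level in KPH2 1 was 0.215 times the median of the other 7 tumours for H2-Eb1, 0.219 for H2-Ab1, 0.226 for H2-Aa, 0.235 for Cd74 and 0.243 for H2-DMb1. It was 0.324 times that median for H2-DMa, 0.394 for Ciita and 0.888 for Ctss. Of the members, 5 of 8 lay at least 2-fold below even the lowest other tumour, namely the 3 chains, Cd74 and H2-DMb1, as did 1.93% of all tested genes. In the authors' rlog values the difference of KPH2 1 from the lowest other tumour was -1.10 to -0.59 log2 units for 7 members and 0.02 for Ctss. The mean log2 CPM of the 8 members was 6.27, 7.01, 6.40 and 7.41 in KP 5 to KP 8, 6.37, 7.22 and 6.85 in KPH2 2 to KPH2 4 and 5.12 in KPH2 1. The 7 tumours of the study interleaved, with a difference of 0.04 between the group means, while the difference of KPH2 1 from their mean was -1.67.

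The levels of the members varied together from tumour to tumour. Over the 8 tumours, Pearson's r between log2 CPM values was 0.995 to 0.996 for the 3 chains, and it was 0.859 to 0.996 over the 21 pairs without Ctss. Pairs with Ctss reached 0.563 to 0.688. Without KPH2 1 these values were 0.990 to 0.992, 0.662 to 0.992 and 0.487 to 0.777. The points are 8 libraries that share their depth and tissue mixture between genes, so the values describe these tumours only. In bulk tissue a lower level can reflect fewer cells of a type or less RNA per cell, and these cannot be told apart.

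Within a tumour, the ratios of the 3 chains to each other varied less than their levels. H2-Aa had 1.54 to 1.84 counts per count of H2-Ab1 over all 8 tumours, KPH2 1 included at 1.67. H2-Eb1 had 0.949 to 1.14 counts per count of H2-Ab1, with KPH2 1 at 1.09, and the groups overlapped in both ratios. The 3 chains were thus low together in KPH2 1, with ratios inside the range of the other tumours. Relative to Ctss, KPH2 1 had 0.296 counts of H2-Aa per count of Ctss against 0.689 to 1.80 in the other tumours.

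Per count of Ciita the chains and Cd74 were higher in KPH2 2 to KPH2 4 than in every KP tumour, a comparison made after the values had been seen. H2-Aa had 8.17, 11.4, 7.29 and 8.86 counts per count of Ciita in KP 5 to KP 8, and 13.2, 12.6 and 13.6 in KPH2 2 to KPH2 4. For H2-Ab1 the ratios were 5.30, 6.21, 4.48 and 5.02 in KP tumours and 7.92, 7.63 and 8.55 in KPH2 tumours. Those of H2-Eb1 were 5.03, 7.10, 4.39 and 5.14 against 8.12, 8.53 and 9.32. Cd74 had 11.7, 17.1, 13.7 and 10.8 counts per count of Ciita in KP tumours and 19.9, 19.7 and 23.6 in KPH2 tumours.

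KPH2 1 did not share this, with 7.07, 4.24, 4.61 and 12.5 for the same 4 genes, which was within or below the KP range. Exact 95% binomial intervals, which cover counting error only, overlapped between KP 6 and a KPH2 tumour for all 4 genes. For H2-Aa they were 9.98 to 13.2 in KP 6 and 11.5 to 15.4 in KPH2 2, for H2-Ab1 5.39 to 7.18 and 6.83 to 9.22, for H2-Eb1 6.17 to 8.2 and 7.0 to 9.45, and for Cd74 14.9 to 19.7 and 17.3 to 23.1. H2-DMa, H2-DMb1 and Ctss per count of Ciita overlapped between the groups. So 4 of the 7 other members were above all KP tumours relative to Ciita, beside 5.33% of all tested genes, and with KPH2 1 included it was 0 of 7. The members and this contrast were seen beforehand, so the count is a description. Ciita had the most negative log2 fold change of the members. Over the 8 tumours the 4 genes followed Ciita (r = 0.859 to 0.905), so shared variation cancels in their ratios, which need not hold for other genes. The share of all genes is thus an unlike measure, and the count cannot show an enrichment.

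**Figure D3:**
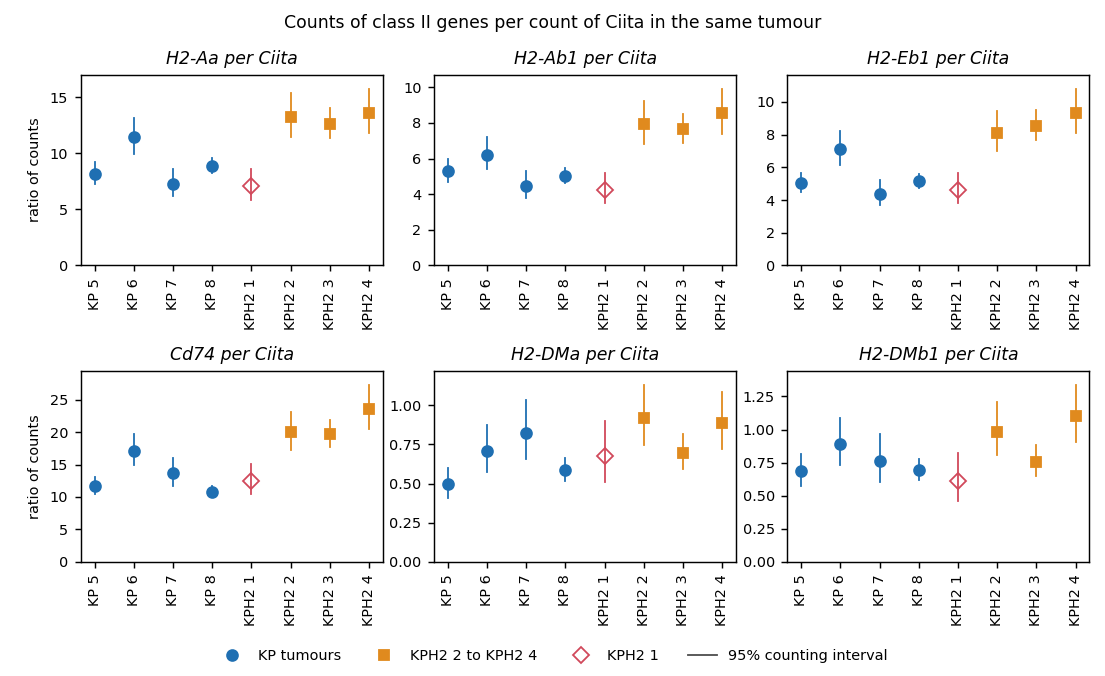
Counts of 6 class II genes per count of Ciita in each tumour (vertical axes start at 0, bars are exact 95% counting intervals). KPH2 2 to KPH2 4 (squares) lie above all KP tumours (circles) for H2-Aa, H2-Ab1, H2-Eb1 and Cd74 but not for H2-DMa and H2-DMb1, and KPH2 1 (open diamond) lies below KPH2 2 to KPH2 4 in all 6 panels.

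The leukocytes of the section were gauged by lists of cell type markers. Summed levels of the 6 general leukocyte markers were 502 to 862 CPM in KP, 452 to 497 CPM in KPH2 2 to KPH2 4 and 378 CPM in KPH2 1. For the 13 macrophage markers they were 2539 to 4613, 1882 to 2813 and 2374 CPM. For the 8 T cell markers they were 12.9 to 34.7, 16.3 to 24.5 and 7.26 CPM, and for the 10 dendritic cell markers 32.9 to 44.7, 43.5 to 59.0 and 28.7 CPM. Without Itgax the other 9 dendritic cell markers summed to 22.1 to 29.7 CPM in KP, 16.8 to 28.1 CPM in KPH2 2 to KPH2 4 and 18.0 CPM in KPH2 1. The 8 B cell markers summed to 3.33 to 8.81 CPM over all tumours, and Pax5, a defining gene of B cells, had 0 counts in 4 of them (KP 6, KP 7, KPH2 1 and KPH2 3).

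Mean log2 CPM of each marker list was compared between the groups of the 7 tumours with a 2-sided exact permutation test (35 splits, smallest possible p = 0.029), with p adjusted over the 8 lists. A single list at that smallest p would have an adjusted p of 0.229, and 5 lists would have to reach it for any to pass 0.05, so this test could hardly pass. The difference was -0.54 for macrophage markers (adjusted p = 0.274), -0.41 for leukocyte markers (adjusted p = 0.305), -0.33 for T cell markers (adjusted p = 0.522) and -0.09 for dendritic cell markers (adjusted p = 0.686). It was -0.59 for mesenchymal, -0.43 for B cell and -0.42 for endothelial markers (adjusted p = 0.274 for each by the exact permutation test). Skeletal muscle markers had the largest difference, 1.98 (adjusted p = 0.274 by the exact permutation test). Of their 10 genes, 10 had an unadjusted p under 0.05 by edgeR (17.8% of all genes), 0 were called by edgeR (1.96%) and 8 were called by DESeq2 (7.25%) over the 7 tumours. Their summed level was 219 to 809 CPM in KP, 625 to 3379 CPM in KPH2 2 to KPH2 4 and 239 CPM in KPH2 1. The mean of the members followed the T cell score over the 8 tumours with r = 0.879, the dendritic cell score with 0.821, the leukocyte score with 0.780, the endothelial score with 0.624 and the macrophage score with 0.561. Over the 7 tumours without KPH2 1 these were 0.719, 0.719, 0.671, 0.255 and 0.395. For B cell, skeletal muscle and mesenchymal markers r was 0.414, 0.337 and 0.128 over the 8 tumours and 0.261, 0.058 and -0.255 over the 7. KPH2 1, lowest in the members, was also lowest in the leukocyte, dendritic cell, T cell and endothelial scores. The part of leukocytes or muscle in the level of the members was not tested.

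**Figure D4:**
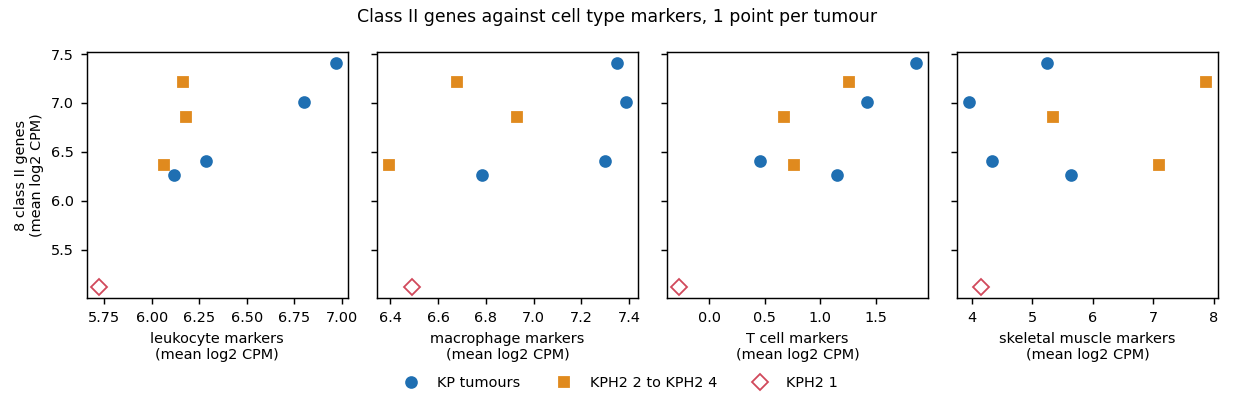
Mean log2 CPM of the 8 class II genes (vertical axis) against the mean log2 CPM of 4 marker lists (horizontal axes), 1 point per tumour. KPH2 1 (open diamond) lies lowest in class II and in the leukocyte and T cell lists; in the leukocyte panel KPH2 2 to KPH2 4 (squares) span 6.06 to 6.18 across and 6.37 to 7.22 upward.

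Relative to the geometric mean of the leukocyte markers, only Cd74 was above every KP tumour in KPH2 2 to KPH2 4 (1 of 8 members, beside 18.6% of all tested genes). Its level was 4.10, 4.85, 4.52 and 4.79 times that mean in KP 5 to KP 8, 5.33, 10.3 and 7.57 times in KPH2 2 to KPH2 4 and 2.41 times in KPH2 1. The count depended on the marker used as the denominator, as did the share of all tested genes. Per count of Ptprc (CD45), itself lower in each of KPH2 2 to KPH2 4 than in every KP tumour, 7 of 8 members were above all KP tumours, beside 28.1% of all genes. With KPH2 1 included this held for Ctss only. H2-Aa for instance had 0.659 counts per count of Ptprc in KPH2 1, against 1.24 to 1.79 in KP. Over KPH2 2 to KPH2 4 the numbers were 5 of 8 per count of Fcer1g (25.4% of all genes), 5 per count of Lyz2 (14.1%) and 4 per count of Adgre1 (16.1%). They were 1 of 8 per count of Csf1r (24.1%), Tyrobp (14.6%) or Coro1a (19.8%), and 0 per count of Laptm5 (34.6%) or Cd52 (2.38%).

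Itgax, the CD11c integrin of dendritic cells and some macrophages, was itself higher in KPH2 2 to KPH2 4, and per count of Itgax all 8 members lay below every KP tumour, as did 77.7% of all tested genes. It stood at 9.86, 12.4, 10.8 and 15.1 CPM in KP 5 to KP 8, at 26.7, 31.0 and 27.8 CPM in KPH2 2 to KPH2 4 and at 10.8 CPM in KPH2 1. It rose with a log2 fold change of 1.24 ± 0.19 (SE; adjusted p = 0.0239 by edgeR's quasi-likelihood test). By the same test the adjusted p was 0.0343 without KP 5 and 0.0281 without KP 8. The call was lost without KP 6 (adjusted p = 0.0570), KP 7 (0.0632), KPH2 2 (0.0753), KPH2 3 (0.0679) or KPH2 4 (0.0584), with log2 fold changes of 1.16 to 1.37 throughout. With KPH2 1 included the adjusted p was 0.220. It was the only one of the 8 tested dendritic cell markers to be called. Flt3, Zbtb46, Xcr1 and Clec9a, which mark dendritic cells more narrowly, had log2 fold changes of 0.03 ± 0.66, -0.26 ± 0.30, -0.97 ± 0.59 and -0.51 ± 0.40 (SE), and none of them was called.

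Genes whose pattern was most like the mean of the members were ranked by Pearson's r over the 8 tumours. Slamf8, a receptor of myeloid cells, came first with r = 0.973 (0.918 without KPH2 1). It stood at 3.19, 4.80, 4.59 and 7.91 CPM in KP 5 to KP 8, at 3.50, 7.99 and 6.07 CPM in KPH2 2 to KPH2 4 and at 1.28 CPM in KPH2 1, so it shared the low value of KPH2 1 and the high values of KP 8 and KPH2 3. It was followed by Frmd6, Fam125b, Klhl4, Cyp1b1, Unc93b1, Fam20a, Itga4, Nup210 and Irf8 with r from 0.953 to 0.930 (0.825 to 0.917 without KPH2 1). Unc93b1 carries nucleic acid-sensing Toll-like receptors to endosomes, and Irf8 is a transcription factor of the dendritic cell and macrophage lineages. KPH2 1 was the lowest tumour for all 10. The ranking itself favours this, since KPH2 1 was the extreme tumour in the mean of the members, so it is no separate result. Among the members themselves, r with the mean of the others was 0.989 for H2-Aa and 0.628 for Ctss.

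Of 51 other genes of the pathway lists found in the table, 46 passed the filter on low counts. These lists include the neighbours of the class II genes on chromosome 17, taken by position, some of which serve class I presentation. None was called between KPH2 and KP tumours by edgeR in either direction over 7 tumours (beside 1.96% of all tested genes) or 8 (0.00675%). By DESeq2 over 7 tumours none was called either, beside 7.25% of the genes it tested. At an unadjusted p under 0.05 there were 5 of 46 by edgeR over 7 tumours, beside 17.8% of all tested genes, and 7 of 46 over 8 tumours, beside 14.7%. Their median log2 fold change was -0.25, with 19 above and 27 below 0, beside -0.02 over all tested genes.

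Among the transcription factors of class II genes, the RFX subunits Rfx5, Rfxap and Rfxank had log2 fold changes of -0.07 ± 0.22, 0.03 ± 0.20 and 0.28 ± 0.28 (SE). The NF-Y subunits Nfya, Nfyb and Nfyc had 0.04 ± 0.14, -0.38 ± 0.19 and 0.04 ± 0.25 (SE). None of the 10 factors on this list was called, 6 being above and 4 below 0. KPH2 1 was not the lowest tumour for any RFX or NF-Y subunit, at 15.6 CPM of Rfx5 against 10.2 to 16.8 CPM elsewhere and 8.78 CPM of Rfxap against 8.44 to 11.4 CPM elsewhere. Interferon gamma, the cytokine that induces Ciita, was near the limit of counting, with Ifng at 0 to 0.452 CPM. Its receptor chain Ifngr2 had groups that did not overlap, at 112 to 188 CPM in KP and 68.2 to 97.1 CPM in KPH2 2 to KPH2 4. In KPH2 1 this chain stood at 108 CPM. The log2 fold change of Ifngr2 over the 7 tumours was -0.68 ± 0.22 (SE) and was not called (adjusted p = 0.157 by edgeR). Irf1, a transcription factor downstream of this receptor, had 0.01 ± 0.27.

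Of the 11 genes for processing of antigen and invariant chain, 4 were above and 7 below 0 and none was called. Lgmn, the asparaginyl endopeptidase legumain, had groups that did not overlap, at 352 to 550.2 CPM in KP and 305 to 351 CPM in KPH2 2 to KPH2 4 (log2 fold change -0.53 ± 0.19 SE, adjusted p = 0.184 by edgeR). In KPH2 1 it stood at 342 CPM. Ctsz, cathepsin Z, lay at 172 to 195 CPM in KP and 204 to 216 CPM in KPH2 2 to KPH2 4 (0.19 ± 0.12 SE, adjusted p = 0.473 by edgeR). Lag3, a checkpoint receptor that binds class II, was at 1.73 to 4.38 CPM in KP and 5.85 to 6.65 CPM in KPH2 2 to KPH2 4 (0.98 ± 0.34 SE, adjusted p = 0.183 by edgeR). In KPH2 1 it was at 3.51 CPM, inside the KP range. Together with Ifngr2, these 4 of 46 genes did not overlap between the groups, beside the 16.9% of all tested genes. With KPH2 1 included, Lag3 and Ctsz overlapped. The 5 genes for trafficking and turnover had 3 above and 2 below 0, and the 7 costimulation and checkpoint genes 2 above and 5 below. In KPH2 1, 17 of the 46 genes had their lowest level, beside 14.8% of all tested genes. Among them were 5 of the 7 costimulation and checkpoint genes. So were 4 of the 6 neighbours of the class II genes on chromosome 17 (Psmb8, Psmb9, Tap1 and Tap2, which serve class I presentation). It was 2 of 11 for processing, 2 of 10 for transcription factors and 2 of 7 for interferon gamma signalling. For trafficking and turnover it was 2 of 5, and for other class II molecules 0 of 2. Psmb8 for instance stood at 12.2 CPM in KPH2 1 against 18.1 to 49.4 CPM elsewhere, while Ctsb and Ifi30, lysosomal enzymes like Ctss, stood at 1213 and 74.5 CPM in KPH2 1, inside the range of the other tumours for Ctsb (772 to 1361 CPM) and near its top for Ifi30 (45.6 to 75.0 CPM). KPH2 1 was however the lowest tumour for the lysosomal enzymes Ctsh, at 33.0 CPM against 42.1 to 77.2 CPM, and Ctsz, at 151 CPM against 172 to 216 CPM.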

How the data were processed

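RNA-seq was carried out on 8 UPS tumours, 4 KP and 4 KPH2. According to the submitters' processing notes and the methods, reads were called with CASAVA 1.8.2, aligned to GRCm38 with STAR 2.4, and unique alignments were counted per RefSeq gene with HTSeq 0.6.1. The authors deposited raw counts per gene, without normalization, and log2 values from the rlog transformation of DESeq2 1.6, over 7 and over 8 tumours. The RNA came from FFPE tissue, which is often fragmented, and Ribo-Zero libraries also hold unspliced RNA. Whether counting used strand is not given in the sources used here.

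The analysis of the counts ran in edgeR 4.0.16 under R 4.3.3 (TMM, filter with minimum count 10 and minimum total count 15, robust quasi-likelihood test, Benjamini-Hochberg threshold 0.05) over KP 5 to KP 8 and KPH2 2 to KPH2 4, and again over all 8 tumours. CPM used TMM sizes over all 8 tumours, and log2 CPM a prior count of 2. Exonic length was the union of exons of GENCODE transcripts paired with RefSeq ones. Marker scores were means of log2 CPM. Ratios were ratios of counts in 1 library with exact (Clopper-Pearson) 95% intervals. Intervals and the floor of 3 counts cover counting error only. The scripts were tested on simulated data.

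The members and all lists were chosen with earlier results of these data known. Named genes are the 8 members, Epas1, pathway genes that were called or whose groups do not overlap, and the 10 genes with the highest r to the members. Other pathway genes and all marker genes were named after their values were seen, as were the denominators of ratios. Alternatives were all 8 tumours, leaving out each tumour, DESeq2 size factors or upper-quartile scaling, other low-count filters, edgeR without robust estimates, DESeq2 1.42.0 and the rlog values. No library pair was alike within counting error; KP 6 and KP 8 came closest (chi-square 28.3 per degree of freedom). An allele shared by both groups and a pathway gene are not reported here. Promoter windows and gene positions came from RefSeq (GRCm38.p6).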

Additional observations from a re-analysis of the deposited data

Results flagged for a closer look

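The macrophage marker score of KP 5, 6.78 mean log2 CPM, lay far below those of the other KP tumours (7.3 to 7.39) relative to the range of the group. It was the 1 flag among 36 groups of values examined for such a gap, and chance alone flags about 1 group in 20. KP 5 was also the lowest KP tumour for Cd74, H2-DMa, H2-DMb1, Ciita and Ctss.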

How the results depend on the processing

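No paired analysis was made because the labels link no KP tumour to a KPH2 tumour. They number the libraries in 1 running series, KPH2 1 to KPH2 4 and KP 5 to KP 8. The log2 fold changes of the 8 members were recomputed under 14 alternatives (all but the rlog values). All 112 values lay within 1 SD between tumours of the first, and 13 had the other sign. Leaving out 1 tumour or changing the scaling can hardly move a value that far, so this limit is no check of stability. Without 1 tumour each, the value of H2-Aa ran from -0.16 to 0.45. The number of genes called over the whole table varied more. It was 292 over the 7 tumours, 1 with KPH2 1 included, 1178 by DESeq2 and 55 to 349 without 1 tumour each. With KPH2 1 included it was 1 by edgeR, 643 by DESeq2 and 0 to 292 without 1 tumour each, the 292 being without KPH2 1. The cause was not tested. The number of pathway genes called stayed at 0 under the same 14 alternatives. The difference in the mean of the members was 0.04 over the 7 tumours, -0.38 with KPH2 1 included and -0.16 to 0.27 without 1 tumour each. Differences in marker scores moved too without 1 tumour each. They ran from -0.24 to 0.06 for dendritic cell, -0.58 to -0.11 for T cell and -0.65 to -0.28 for B cell markers. For leukocyte, macrophage and endothelial markers they ran from -0.55 to -0.26, -0.68 to -0.40 and -0.61 to -0.29. Mesenchymal markers had -0.82 to -0.47 and skeletal muscle markers 1.43 to 2.69. With 4 against 3 tumours, standard errors of 0.22 to 0.39 limit what can be seen for single members.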
